A study of Mus musculus with 8 samples.

Results

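The 10 genes described here are genes of the circadian clock: Ciart, Per1, Per2, Per3, Dbp, Tef, Nr1d1, Nr1d2, Arntl and Clock. They were taken by symbol from a table of 18187 genes, and all 10 had a row. The samples are bulk RNA libraries of mouse cells labelled neutrophils from tumors of B16, a transplantable mouse melanoma line. The tumors were treated with aOX40, read here as an antibody to the T cell costimulatory receptor OX40 (3 libraries, replicates 1 to 3), or with IgG as control (5 libraries, replicates 2 to 6). The sources used here do not give strain, age, sex, doses, treatment times, the way the cells were isolated or the time of day of collection. They do not say either whether each library came from its own animal, so errors and p-values measure the spread between libraries and some of that spread may be technical. The 10 genes were chosen by their role in the clock and with their aOX40 against IgG differences in these libraries in view, so for them that contrast is described and no test is drawn from it.

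The circadian clock is a feedback loop of transcription factors that runs in almost every cell. CLOCK and its partner BMAL1, the product of Arntl, bind E-box sequences and switch on the Per and Cry genes, whose proteins return to the nucleus and inhibit the pair. The nuclear receptors REV-ERB alpha and beta (Nr1d1 and Nr1d2) repress Arntl, and the PAR bZIP factors Dbp and Tef act through D-box sequences on output genes. CIART, also called CHRONO, is a further repressor of CLOCK and BMAL1 that is itself driven through E-boxes. In mouse neutrophils the clock is known for timing the change of the cells as they age in the blood, and Per1 is also induced directly by glucocorticoid hormones.

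The promoters were searched for short sequences through which some of these factors act. RefSeq windows on GRCm38.p6 (the assembly also called mm10) were matched for 9 of the 10 genes, all but Per2, in 14 windows, and the 250 bases before each annotated start were searched on both strands. The motifs were the E-box CACGTG, the E-box variant CACGTT, the D-boxes TTATGTAA and TTACGTAA, the ROR and REV-ERB core motifs TAGGTCA and TGGGTCA, and the cyclic AMP motif TGACGTCA. No matches overlapped in these windows. The windows of the 2 genes whose levels differed most between the groups, and of Per3, for its pair of D-boxes, are printed 5′ to 3′ with each match in capitals.

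Ciart, chr3:95882229-95882478, minus strand: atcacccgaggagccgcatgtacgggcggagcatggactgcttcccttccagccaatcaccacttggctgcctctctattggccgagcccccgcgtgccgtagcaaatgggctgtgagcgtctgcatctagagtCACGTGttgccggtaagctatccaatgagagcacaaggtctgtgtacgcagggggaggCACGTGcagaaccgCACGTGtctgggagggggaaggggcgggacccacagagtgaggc

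Per1, chr11:69098699-69098948, plus strand: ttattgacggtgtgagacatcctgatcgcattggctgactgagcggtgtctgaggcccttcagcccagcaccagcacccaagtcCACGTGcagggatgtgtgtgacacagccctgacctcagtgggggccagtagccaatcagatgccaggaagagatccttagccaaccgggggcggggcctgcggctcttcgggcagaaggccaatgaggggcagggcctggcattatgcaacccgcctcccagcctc

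Per3, chr4:151044666-151044915, minus strand: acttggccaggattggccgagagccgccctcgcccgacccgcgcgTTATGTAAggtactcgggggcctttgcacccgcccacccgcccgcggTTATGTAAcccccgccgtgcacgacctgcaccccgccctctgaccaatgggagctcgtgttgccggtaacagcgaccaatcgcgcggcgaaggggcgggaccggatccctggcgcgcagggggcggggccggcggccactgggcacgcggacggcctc

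The Ciart window held 3 E-boxes, whose first bases lay 116, 58 and 44 bases before the start (as -116, -58 and -44). Of 13348 windows of the same length from genes in the table, 8.26% held at least 1 E-box and 14 (0.105%) held 3 or more. The upstream window of Per1 held 1 E-box at -166, and its other window held none of the motifs. Per3 held 2 D-boxes of the form TTATGTAA, at -205 and -158, a motif present in 0.554% of windows and present at least 2 times in 3 of them. Both Tef windows held 1 E-box, and Nr1d1 held CACGTT on the reverse strand at -28, which 4.38% of windows held. The windows of Dbp, Nr1d2, Arntl and Clock held none of these letters. A match describes the sequence and does not show that a factor binds there. The lack of a match covers these letters in these 250 bases only, so it does not show that a control is missing. No motif of the glucocorticoid receptor was searched.

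The aOX40 libraries were deeper, with 69630000 to 73480500 counts against 52682200 to 63238100 in IgG and no overlap (exact two-sided permutation p = 0.0357, the smallest that 3 against 5 allow). All 12 neutrophil markers were in the table and summed to between 17049 and 24805 CPM (the TMM-scaled count per 1e6) in aOX40 and between 16258 and 28116 CPM in IgG, and 3 of the 12 rose in aOX40 (Mmp8, Mmp9 and Cd177). Among them S100a8 averaged 5773 ± 2032 against 5596 ± 1504 CPM, S100a9 7088 ± 2469 against 8066 ± 1717 CPM, Csf3r 690.0 ± 200 against 880 ± 205 CPM and Ly6g 111 ± 31.2 against 89.5 ± 28.5 CPM. Macrophage and monocyte markers (9 of 10 in the table) summed to 548 to 789 CPM in aOX40 and 376 to 726 CPM in IgG, most of it Ly6c2. Of the 8 macrophage and monocyte markers tested 1 rose, Adgre1 (the macrophage antigen F4/80), from 6.12 ± 2.62 to 21.6 ± 6.37 CPM (log2 fold change 1.81, SE 0.37, adjusted p = 0.0248, edgeR), and Csf1r, the receptor for macrophage growth factor, did not overlap but did not pass (51.2 ± 21.2 CPM in aOX40, 17.5 ± 8.26 CPM in IgG, adjusted p = 0.0546, edgeR). T cell markers (6 of 8) summed to 1.40 to 17.1 against 1.21 to 3.70 CPM, melanoma markers (7 of 7) to 4.59 to 9.07 against 5.77 to 15.4 CPM, and B cell markers (2 of 5, nearly all of it Ighm) to 65.1 to 77.7 against 30.1 to 251 CPM. Of the 5 melanoma markers tested 0 passed. Mitf averaged 5.00 against 4.13 CPM and Pmel 0.940 against 0.749 CPM. Lower means in aOX40 were seen for Tyrp1 (0.779 against 1.95 CPM), Dct (0.226 against 1.49 CPM) and Mlana (0.303 against 1.01 CPM). Dendritic cell markers (4 of 7) stayed at or below 6.11 CPM, and NK cell markers (1 of 5) at or below 0.323 CPM. Fibroblast and pericyte markers (4 of 7) were at 1.22 to 4.04 against 3.45 to 32.4 CPM. Col1a1 averaged 1.72 CPM in aOX40 and 15.01 CPM in IgG, and Dcn, Col3a1 and Lum were at 0 in most libraries. For the endothelial list, the marker in the table (1 of 5, Pecam1) was at 3.23 to 5.78 against 5.46 to 27.5 CPM. The fibroblast and endothelial sums each had an exact permutation p of 0.0714 (0.321 adjusted over the 9 lists). Messenger RNA of the mitochondrial genome made up 0.0998% to 0.152% of counts in aOX40 and 0.0510% to 0.0811% in IgG. The part of depth, of these other cells and of RNA quality in the differences below was not tested.

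The clock genes fell into a high pair and a thin remainder. Ciart and Per1 stood above every other of the 10 in all 8 libraries, Per2, Per3, Dbp, Clock and Nr1d1 were below 10 CPM in every library, and Arntl, Nr1d2 and Tef were too low to judge. A gene counted as too low to judge when it failed the filter on low counts or stayed below 10 counts in every library, and as low when both group means were under 1 CPM, which held for Nr1d1. So 6 genes were judged, 1 was low and 3 were too low. Fewer cells carrying a transcript and less of it per cell cannot be told apart in bulk libraries.

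**Figure D1:**
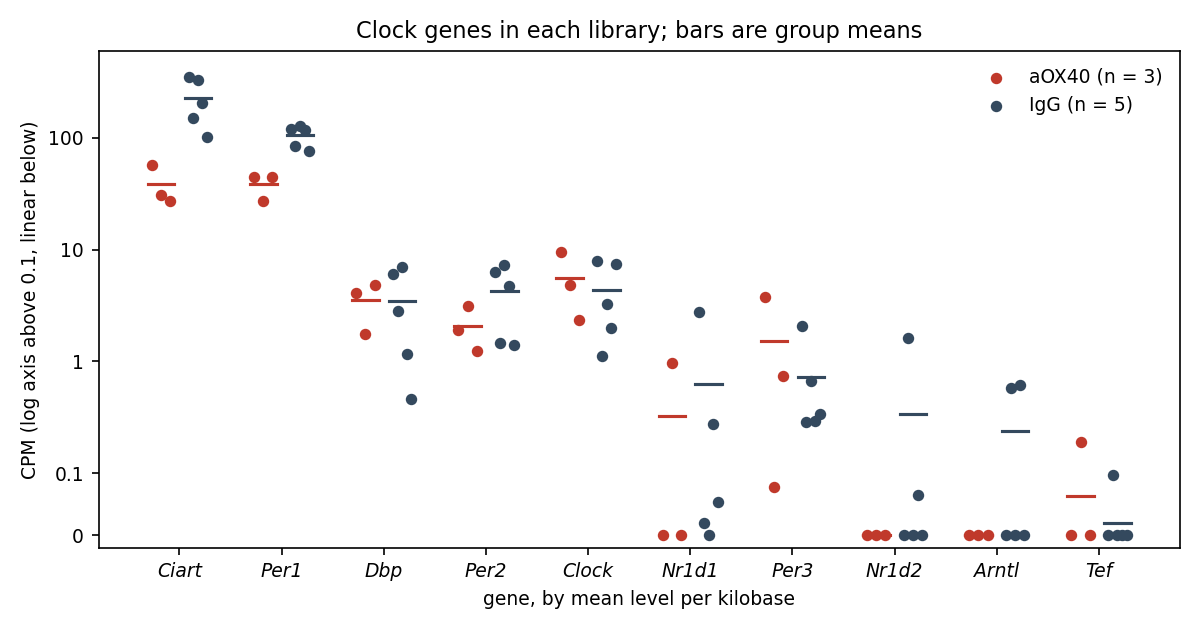
Level of each of the 10 clock genes in CPM (y axis, logarithmic above 0.1 and linear below) in every library, with aOX40 in red (n = 3), IgG in dark blue (n = 5) and a bar at each group mean. Ciart and Per1 separate by group, the next genes overlap, and Nr1d2 and Arntl are at 0 in all 3 aOX40 libraries.

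Among the 6 genes judged, the repressor Ciart showed the largest fold between the groups. Ciart (ENSMUSG00000038550.10, chromosome 3, 95878503 to 95882251, minus strand, 6 exon blocks) was at 57.4, 30.7 and 27.0 CPM in aOX40 replicates 1 to 3 and at 349, 150, 326, 205 and 101 CPM in IgG replicates 2 to 6. The highest aOX40 library lay below the lowest IgG library. The means were 38.4 ± 16.6 CPM (SD, n = 3) and 226 ± 108 CPM (SD, n = 5), 5.89-fold lower in aOX40, and the fitted log2 fold change was -2.56 (SE 0.46). Within IgG, replicates 2 and 4 were the highest and replicate 6 the lowest. Reads of Ciart may not all be told apart from those of a pseudogene, Gm9176, whose values are given with the near copy.

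Per1, the period gene that responds fastest to hormones and other signals, differed in the same direction and by less. Per1 (ENSMUSG00000020893.17, chromosome 11, 69095217 to 69109960, plus strand, 24 exon blocks) was at 44.6, 27.0 and 44.3 CPM in aOX40 and at 120.3, 84.5, 128, 117 and 76.7 CPM in IgG replicates 2 to 6. Here too the groups did not overlap. The means were 38.6 ± 10.1 CPM and 105 ± 23.0 CPM, 2.72-fold lower in aOX40, with a log2 fold change of -1.45 (SE 0.27).

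Of the 13278 genes tested with edgeR, 5.65% were called at an adjusted p under 0.05, with 2.64% higher and 3.00% lower in aOX40. Of the 7 clock genes past the filter, Ciart and Per1 were called, both lower, and 5 were not. The groups did not overlap for the same 2 genes, both with aOX40 lower, where 7.75% of all genes tested showed no overlap with aOX40 lower and 8.22% with aOX40 higher. The genes had been proposed with this contrast in view, so these counts describe the choice. Both calls were lost without aOX40 replicate 2 and without aOX40 replicate 3. The log2 fold changes stayed between -2.96 and -2.35 for Ciart and between -1.56 and -1.24 for Per1 over the 8 analyses with 1 library left out.

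**Figure D2:**
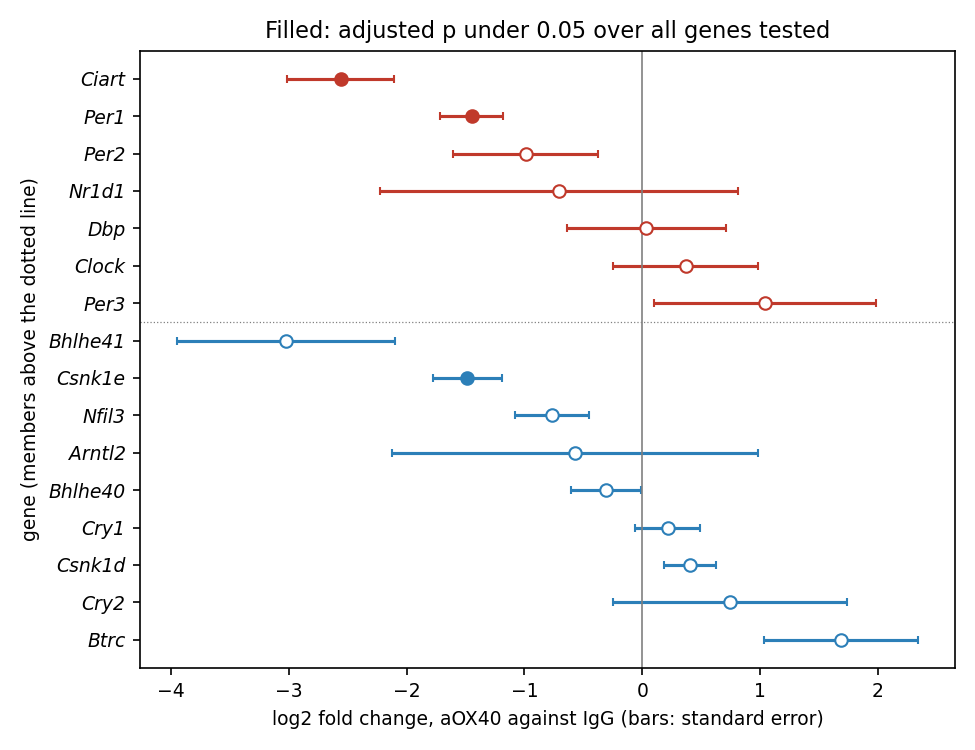
Log2 fold change of aOX40 against IgG (x axis) with its standard error for the 7 clock genes past the filter (red, above the dotted line) and 9 further clock genes (blue). Filled points have an adjusted p under 0.05 over all genes tested, which holds for Ciart, Per1 and Csnk1e. The 7 genes in red were chosen with this contrast in view, so their fill is a description and no test.

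The other 2 period genes were far below Per1 and their groups overlapped. Per2, which inhibits CLOCK and BMAL1 together with the cryptochromes, was at 1.91, 3.14 and 1.24 CPM in aOX40 and at 6.36, 1.45, 7.28, 4.75 and 1.42 CPM in IgG replicates 2 to 6. Its log2 fold change was -0.99 (SE 0.62), below 0 in all 17 alternative analyses, and IgG replicates 3 and 6 lay within the aOX40 range. Per3, a period gene that the core loop can run without, was at 3.75, 0.0785 and 0.736 CPM in aOX40 and at 2.07, 0.289, 0.670, 0.294 and 0.336 CPM in IgG. One library in each group stood high, aOX40 replicate 1 and IgG replicate 2. The log2 fold change of Per3 was 1.04 (SE 0.94) with all libraries and -0.83 without aOX40 replicate 1, so its sign rested on that library. Per length of exon, Per1 made up 89.8% to 96.5% of the 3 period genes in aOX40 and 94.3% to 98.2% in IgG, and these ranges overlapped.

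Of the D-box factors, Dbp, a direct output of CLOCK and BMAL1 with one of the widest daily swings in tissues such as liver, did not separate the groups. It was at 4.08, 1.75 and 4.79 CPM in aOX40 and at 6.11, 2.80, 6.997, 1.16 and 0.460 CPM in IgG replicates 2 to 6, a log2 fold change of 0.035 (SE 0.68) whose sign held in 9 of 17 alternative analyses. IgG replicates 4 and 6 were the highest and the lowest of all 8. Dbp shares 539 exon bases, 18.01% of its exons, with Sphk2 on the other strand, which held 2022 to 3958 counts per library against 25.9 to 384 for Dbp. The sources used here do not say whether strand was used in counting, so reads over the shared bases may not be told apart. Tef, the relative of Dbp, had 17 counts in aOX40 replicate 2, 5 counts in IgG replicate 3 and 0 in the other 6 libraries, and was too low to judge.

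The REV-ERB genes were detected in some libraries only. Nr1d1 was at 0, 0.976 and 0 CPM in aOX40 and at 2.79, 0.0193, 0, 0.277 and 0.0531 CPM in IgG replicates 2 to 6. Thus 1 library in each group carried most of its reads, 87.0 counts in aOX40 replicate 2 and 136 counts in IgG replicate 2. Its log2 fold change of -0.71 (SE 1.52) had an error larger than itself and went to -8.15 without aOX40 replicate 2. Nr1d1 also shares 263 exon bases with Thra on the other strand. Nr1d2 had 84 counts in IgG replicate 3, 4 counts in IgG replicate 5 and 0 in the other 6 libraries.

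Among the activators, Clock was measurable and Arntl was not. Clock, which encodes a subunit of the activating pair, was at 9.61, 4.84 and 2.33 CPM in aOX40 and at 7.88, 1.12, 3.26, 1.99 and 7.42 CPM in IgG replicates 2 to 6. The groups overlapped over nearly their whole ranges, with a log2 fold change of 0.37 (SE 0.61) that went to -0.23 without aOX40 replicate 1 and to -0.13 with a replicate block. Arntl had 30 counts in IgG replicate 3, 38 counts in IgG replicate 5 and 0 in the other 6 libraries, including all 3 of aOX40. A count of 0 allows up to 3 counts, which was 0.0337 to 0.0404 CPM in the aOX40 libraries and 0.0489 to 0.0616 CPM in IgG. These limits cover counting error only, and no fold is given for Arntl, Nr1d2 or Tef.

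Levels of different genes were compared per kilobase of annotated exon. On that scale Ciart averaged 68.9 CPM per kilobase over the 8 libraries and Per1 14.3, and Ciart was above Per1 in 8 of 8 libraries. Dbp followed at 1.18, Per2 at 0.588 and Clock at 0.350 CPM per kilobase. Dbp exceeded Per2 in 6 of 8 libraries and Per2 exceeded Clock in 6 of 8, so these neighbours were not separated beyond their spread. Nr1d1 and Per3 came next at 0.167 and 0.107, and Nr1d1 was above Per3 in only 3 of 8 libraries. Against all genes tested, mean Ciart per kilobase was at percentile 96.1 in IgG and 86.3 in aOX40, and Per1 at percentile 87.0 and 76.2. Clock was at percentile 22.9 and 26.9, below Ciart and Per1 in both groups.

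**Figure D3:**
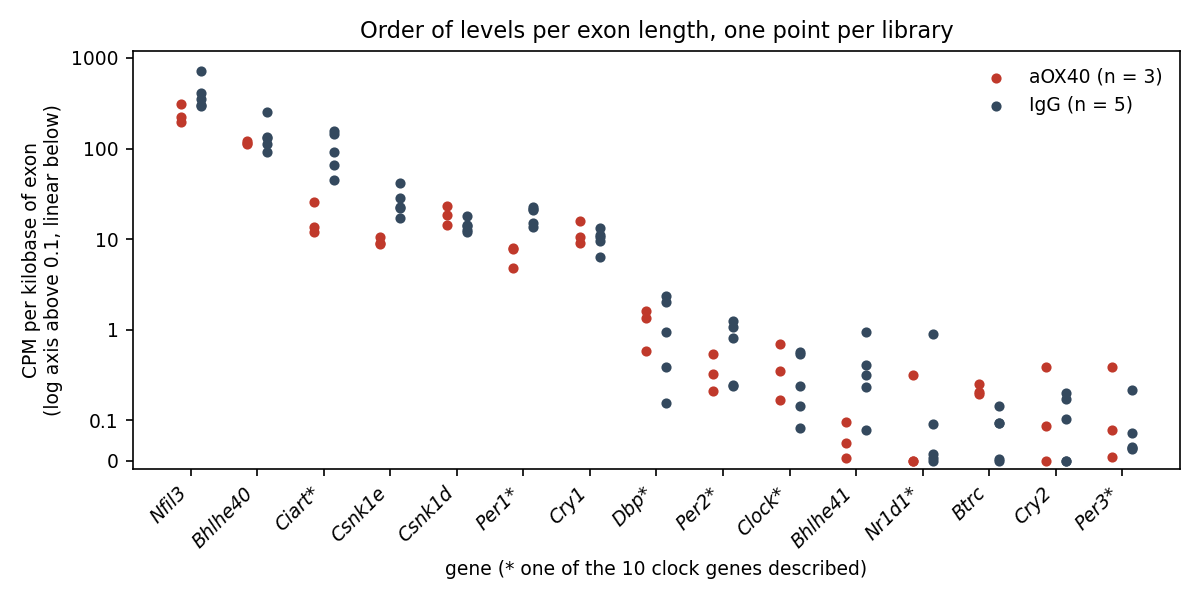
Level per kilobase of exon (y axis, CPM per kilobase, logarithmic above 0.1 and linear below) for clock genes with a mean of at least 0.1, with 1 point per library, aOX40 in red (n = 3) and IgG in dark blue (n = 5). Nfil3, Bhlhe40 and Ciart lead by mean level, and a wide step separates Cry1 from Dbp.

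Ciart has a near copy in the genome. The processed pseudogene Gm9176 on chromosome 10 matched 58.1% of the longest Ciart transcript at 96.7% identity, and 100% of the Gm9176 transcript matched Ciart. The deposited counts of Ciart carry fractions in most libraries, and Gm9176 held 9.22%, 9.89% and 12.4% of the Ciart count in aOX40 and 7.96%, 10.1%, 8.59%, 9.33% and 8.65% in IgG replicates 2 to 6. Gm9176 had a log2 fold change of -2.35 (SE 0.45). With the counts of both added, the log2 fold change was -2.54 (SE 0.45) against -2.56 for Ciart alone. The sources used here do not say how reads were divided between the copies, so the level of Ciart by itself is uncertain. C920021L13Rik spans Ciart on the other strand, shares no exon base with it and held 10.8 to 128 counts per library.

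**Figure D4:**
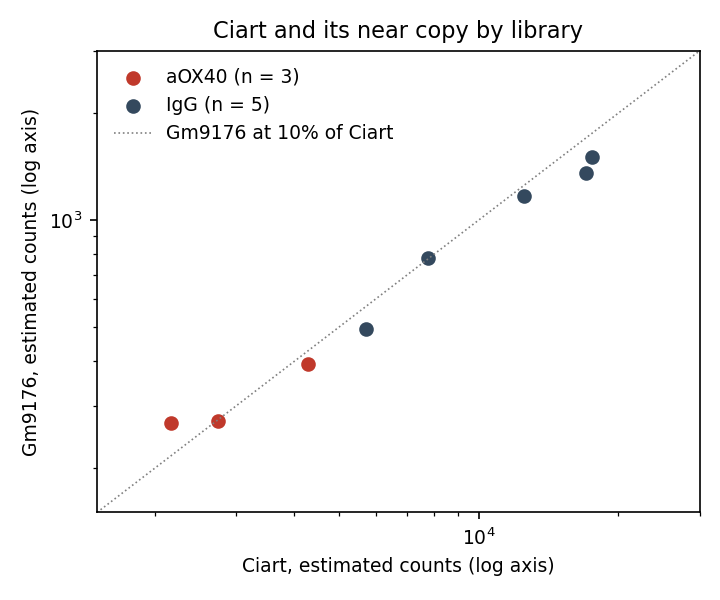
Deposited estimated counts of Gm9176 (y axis) against those of Ciart (x axis), both logarithmic, with 1 point per library, aOX40 in red (n = 3) and IgG in dark blue (n = 5). The points lie near the dotted line, which marks Gm9176 at 10% of Ciart, and range from 7.96% to 12.4%.

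Genes whose pattern over the 8 libraries was most like that of Ciart were taken from 4941 genes with a mean of at least 10 CPM. Among the 5 highest were Gm9176 (Pearson r = 0.995 of log2 CPM, n = 8 libraries) and the processed pseudogenes Gm14494 (r = 0.989), Gm6485 (r = 0.986) and Gm37486 (r = 0.985). With group means removed the r of these 4 genes lay between 0.924 (Gm37486) and 0.976 (Gm9176). The longest Gm14494 transcript matched Tomm20, a mitochondrial import receptor gene, over 100% of its length, and Gm6485 and Gm37486 matched the histone gene H3f3b over 95.2% and 100%. Reads of these 3 models may thus belong to their parent genes. Per1 ranked at place 50 with r = 0.950. These r values are a description, since the libraries share their groups and depth, and the genes were picked as the highest of many.

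With the group means removed, the clock genes could be followed from library to library without the treatment contrast. Ciart and Per2 moved together (r = 0.782 over 8 libraries), as did Ciart and Dbp (0.763) and Ciart and Per1 (0.731). Per1 and Dbp gave 0.701 and Per1 and Per2 0.463, with Per1 and Per3 at 0.727. Clock gave 0.476 with Per3, 0.328 with Nr1d1, 0.323 with Ciart, 0.262 with Per2, 0.030 with Per1 and -0.092 with Dbp. Leaving out 1 library moved Ciart with Per1 between 0.594 and 0.921 (the last without aOX40 replicate 3), and Per1 with Per2 between 0.230 and 0.970 (the last without aOX40 replicate 2). Of the 21 pairs among 7 genes, 17 had r above 0 and 12 kept their sign whichever library was left out. Those below 0 were Nr1d1 with Per1 (-0.198), Per3 (-0.173) and Dbp (-0.075), and Clock with Dbp. Pairs of other genes were not counted in this way, so no share over all genes stands beside these counts. In IgG, replicates 2 and 4 were above their group mean for Ciart, Per1, Per2 and Dbp, and replicate 6 was below it for all 4. The fibroblast marker Col1a1 was also highest in IgG replicates 2 and 4, at 32.4 and 21.4 CPM against 3.42, 6.77 and 11.1 CPM in replicates 3, 5 and 6. Other markers of that list did not follow it. Col3a1 and Dcn were highest in IgG replicate 6, at 2.23 and 1.06 CPM, and at or near 0 in IgG replicates 2 and 4. Col1a1 was at 1.22 to 2.21 CPM in aOX40 and was itself lower there (log2 fold change -3.09, SE 0.75, adjusted p = 0.0414, edgeR), and its part in the clock gene values was not tested. These r values carry no test, and the libraries share depth and composition.

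**Figure D5:**
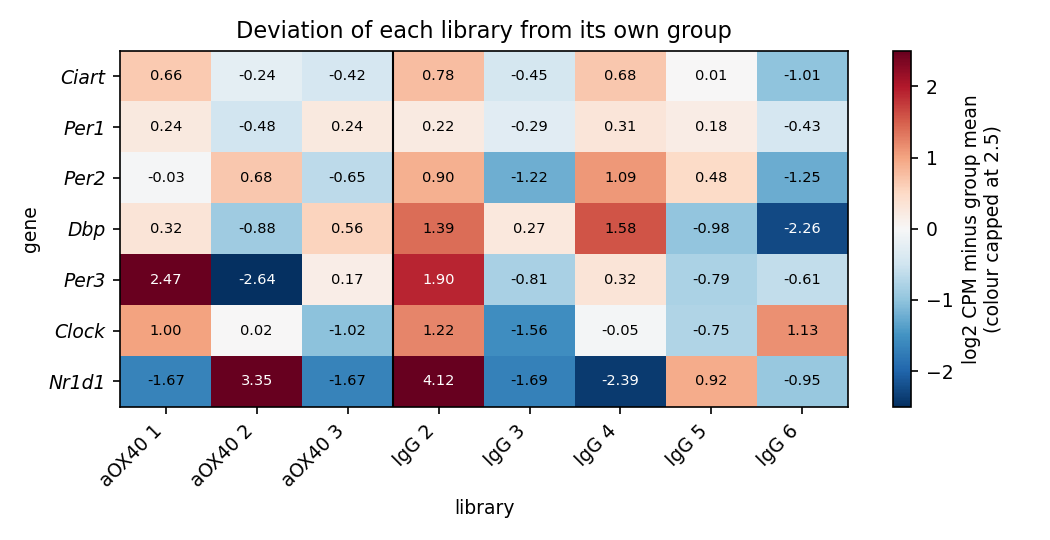
Log2 CPM of 7 clock genes in each library minus the mean of its own group (colour and printed values, capped in colour at 2.5). The row for Per1 is the flattest, and IgG replicates 2 and 4 are positive and IgG replicate 6 negative in the rows for Ciart, Per1, Per2 and Dbp.

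The rest of the clock was examined through 17 textbook components and regulators that are not among the 10. This list and those that follow were, like the 10 genes, chosen with earlier results of these data known. Their calls and adjusted p are therefore not independent of those results. Of the 17 genes 14 were in the table and 10 were tested, of which 1 fell, 0 rose and 9 did not pass. Over all genes tested 3.00% fell and 2.64% rose. The median log2 fold change was -0.12 against 0.045 over all genes tested. The gene that fell was Csnk1e, which encodes casein kinase 1 epsilon, an enzyme that phosphorylates PER proteins and marks them for destruction. It was at 69.4, 57.6 and 59.4 CPM in aOX40 and at 273, 149, 189, 147 and 112 CPM in IgG replicates 2 to 6, with no overlap. Its log2 fold change was -1.48 (SE 0.29, adjusted p = 0.0210, edgeR), and 267 of its exon bases overlap the antisense gene Gm16059, which held 57.9 to 231 counts. The call was lost without aOX40 replicate 2 (adjusted p = 0.126) and without aOX40 replicate 3 (adjusted p = 0.0900, edgeR). Btrc, a subunit of the ligase that removes PER proteins, also showed no overlap, at 3.32 to 4.24 CPM in aOX40 and 0 to 2.45 CPM in IgG, and did not pass (1.68, SE 0.65, adjusted p = 0.140, edgeR). It was singled out after its values were seen.

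Csnk1d, which encodes the sister kinase casein kinase 1 delta, did not pass and averaged 94.0 ± 21.4 CPM (SD) over the 3 aOX40 and 71.0 ± 11.9 CPM (SD) over the 5 IgG libraries. Its log2 fold change was 0.41 (SE 0.22, adjusted p = 0.285, edgeR). Per kilobase, Csnk1e made up 28.1% to 42.1% of the 2 kinases in aOX40 and 58.9% to 74.2% in IgG, so Csnk1d led in all 3 aOX40 libraries and Csnk1e in all 5 IgG libraries. This ratio was formed after the values were seen and was not tested.

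The remaining repressors did not pass, and Nfil3, Bhlhe40 and Cry1 were the higher ones. Nfil3, which opposes Dbp and Tef at the D-box, had the highest mean of these clock genes per kilobase, and was at 395, 457 and 629 CPM in aOX40 and at 1437, 616, 830, 595 and 719 CPM in the IgG libraries (-0.77 on the log2 scale with SE 0.31, adjusted p = 0.158 in edgeR, and -0.48 without IgG replicate 2). Bhlhe40, a repressor that competes for E-boxes, averaged 548 ± 24.1 against 679 ± 298 CPM (log2 fold change -0.31, SE 0.30). That value was -0.0060 without IgG replicate 2 and 0.0037 when scaled by total counts alone. Cry1, the cryptochrome that inhibits CLOCK and BMAL1 most strongly, averaged 39.6 ± 11.6 against 34.2 ± 8.59 CPM (0.21, SE 0.28, and -0.038 without aOX40 replicate 3). Bhlhe41, the low relative of Bhlhe40, had a larger fold than Ciart but at under 10 CPM, with 0.646, 0.0449 and 0.299 CPM in aOX40 and 6.30, 2.12, 2.72, 1.57 and 0.514 CPM in IgG replicates 2 to 6. Its groups overlapped, and it did not pass (log2 fold change -3.02, SE 0.93, adjusted p = 0.0699, edgeR). Cry2 averaged 1.00 ± 1.29 against 0.598 ± 0.588 CPM (0.74, SE 0.99). Cry1, like Per1, stood far above its paralogue, holding at least 96.5% of the cryptochrome signal per kilobase in every library. A p that misses the threshold does not show that these genes were equal in the groups.

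The next lists held outputs of the clock and genes induced through the glucocorticoid receptor. Over all genes tested 3.00% fell and 2.64% rose, with a median log2 fold change of 0.045. Of 18 clock output genes 12 were tested, with values above 0 for 5, below 0 for 7 and a median of -0.061. Of the 12, 2 fell and 0 rose. Those that fell were Nampt, the rate-limiting enzyme of NAD salvage, at 382, 261 and 254 CPM in aOX40 and at 707, 656, 819, 617 and 832 CPM in the IgG libraries (-1.28 on the log2 scale with SE 0.21, adjusted p = 0.0144 in edgeR), and Cdkn1a, the cell cycle inhibitor p21, at 1189 ± 265 against 2948 ± 120 CPM (-1.31, SE 0.20, adjusted p = 0.00996, edgeR). Klf10, another clock output, was higher in aOX40 with no overlap, at 191 ± 31.6 against 104 ± 33.5 CPM. It did not pass (0.87, SE 0.27, adjusted p = 0.0814, edgeR). Of 16 glucocorticoid-induced genes 13 were tested, with values above 0 for 6, below 0 for 7 and a median of -0.18. Of the 13, 1 rose and 1 fell, the latter Cdkn1a again. Both lists also hold Tsc22d3, Klf9 and Pdk4. The gene that rose was Sgk1, a hormone-induced kinase, at 100.2, 167 and 172 CPM in aOX40 and at 48.6, 68.2, 79.0, 41.5 and 51.3 CPM in IgG (1.34, SE 0.26, adjusted p = 0.0210, edgeR). Without aOX40 replicate 2 the adjusted p was 0.0982 for Nampt, 0.0558 for Cdkn1a and 0.121 for Sgk1, and without aOX40 replicate 3 it was 0.0648 for Nampt and 0.0900 for Sgk1 (edgeR). Tsc22d3 and Fkbp5, further standard readouts of that receptor, had log2 fold changes of 0.35 (SE 0.27) and 0.30 (SE 0.40) and did not pass. Apart from Cdkn1a, members with values below 0 did not pass either. Errfi1, an inhibitor of the EGF receptor, had -1.27 (SE 0.40, adjusted p = 0.0835, edgeR). The transcription factor gene Klf9 had -0.94 (SE 0.41, adjusted p = 0.187, edgeR), and for both genes the groups did not overlap. The phosphatase gene Dusp1 had -0.57 (SE 0.29).

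Genes that follow neutrophil age showed no call. All 10 were tested and 0 passed in edgeR, where 5.65% of all genes tested passed. An unadjusted p under 0.05 was reached by 2 of the 10, and by 3287 of the 13278 genes tested. DESeq2 called 2 of the 10, both lower, and 1457 of the 13278 genes tested, 951 of them lower. Cxcr2, the chemokine receptor that the clock is known to act through in ageing neutrophils, averaged 1123 ± 186 CPM in aOX40 and 1131 ± 159 CPM in IgG, and Cxcr4, which brings aged cells back to the marrow, 122 ± 46.3 against 121 ± 25.3 CPM. Their log2 fold changes were -0.0092 (SE 0.19) and 0.0096 (SE 0.27), with adjusted p of 0.984 and 0.988 (edgeR). Other genes of the list differed more without passing. Itgax, the integrin CD11c, was at 10.8 to 18.6 CPM with aOX40 and at 22.3 to 39.5 CPM with IgG (-1.01, SE 0.30, adjusted p = 0.0697, edgeR), and the chemokine gene Cxcl2 at 9403 to 16682 against 18011 to 26098 CPM (-0.67, SE 0.23, adjusted p = 0.1001, edgeR), both with no overlap. Over all genes tested 7.75% showed no overlap with aOX40 lower and 8.22% with aOX40 higher. Icam1, an adhesion molecule, was at 231 to 542 against 65.6 to 388 CPM (1.01, SE 0.51, adjusted p = 0.253, edgeR), and its groups overlapped.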

How the data were processed

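Bulk RNA libraries of cells labelled neutrophils were compared, 3 aOX40 against 5 IgG, with groups and replicate numbers from the sample titles. The table deposited by the authors gives unscaled estimated counts by gene symbol, of which 63.4% of values were whole within 0.01. Per the submitters' processing notes STAR 2.6.0, Subread and featureCounts 1.5.1 were used with build mm10; the sources used here give no settings, strand or annotation.

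Counts were rounded, filtered with filterByExpr and scaled with TMM factors. The test was the quasi-likelihood F test of edgeR (version 4.0.16, legacy option off, R 4.3.3), with group as the sole term. Adjusted p are Benjamini-Hochberg values over 13278 genes, threshold 0.05; standard errors come from the F statistic. CPM use TMM factors, and log2 CPM a prior count of 2. Exon lengths came from GENCODE M21 on GRCm38 (17669 of 18187 symbols placed), near copies from BLAST+ 2.17.0 at 95% identity, and promoters from RefSeq, build GRCm38.p6.

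The members and lists were chosen with earlier results of these data known. Named were the 10 members, the other clock genes that were called or reached 10 CPM, and up to 4 called genes of each further list; further genes are given as readouts chosen with their values seen. Some genes that this rule covers are not reported here, though the counts over their lists include them. On simulated counts for this comparison (13278 genes) the fit recovered 20% of genes changed 2-fold and 76% of those changed 4-fold, with 10 unchanged genes among 158 calls; changed genes were drawn from those at 10 CPM or more. Alternatives were other scaling and filters, DESeq2 1.42.0, limma voom (limma 3.58.1), each library left out and a replicate block. The earlier form of the edgeR fit and the sum of Ciart and Gm9176 were added after the data were seen.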

Additional observations from a re-analysis of the deposited data

Results flagged for a closer look

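In 7 of 18 genes 1 IgG library stood apart from the other 4, where chance gives about 1 in 20 for values with a normal spread. That share does not hold for genes near 0 such as Tef, Nr1d2 and Nr1d1, where reads in 1 library alone set the gap. IgG replicate 2 was the high library for 4 of them: Per3 at 2.07 CPM (next 0.670), Nr1d1 at 2.79 CPM (next 0.277), Nfil3 at 1437 CPM (next 830) and Bhlhe40 at 1192 CPM (next 627). IgG replicate 3 was the high library for Nr1d2 at 1.62 CPM (next 0.0652) and for Tef at 0.0965 CPM, where the other 4 IgG libraries were at 0. IgG replicate 3 was also the low library for Cdkn1a at 2736 CPM, next to 2980 CPM. Groups of 3 were not examined in this way.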

How the results depend on the processing

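The log2 fold change of Ciart lay between -2.99 and -2.26 over 18 alternatives and that of Per1 over 17 between -1.56 and -1.16. The number of genes called over the whole table was 750 (351 higher, 399 lower), and it was 452 with no filter, 1457 with DESeq2 and 320 with the earlier edgeR fit. With 1 library left out it ran from 0 to 589: 0 without aOX40 replicate 2 (2230 at an unadjusted p under 0.05), 59 without aOX40 replicate 3, 497 without IgG replicate 3 and 475 without IgG replicate 6. Scaling by total counts alone moved the median by 0.30 (log2) and gave 78.0% of calls higher (874 higher, 246 lower) against 46.8%. The calls among other clock genes numbered 1, and 2 with DESeq2 and with the filter of 1 CPM in 3 libraries; neutrophil ageing genes had 2 calls with DESeq2 against 0. With 1 library left out, calls ran from 0 to 1 for other clock genes and from 0 to 2 for clock outputs and for glucocorticoid-induced genes. With 1 library left out Cry1 ran from -0.038 (without aOX40 replicate 3) to 0.38, and Bhlhe40 was at 0.0037 with total counts alone. The cause of these shifts was not tested.

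Only replicate numbers 2 and 3 occur in both groups, and same-numbered libraries hardly deviated together (correlations of 0.0224 and 0.0469 over 13278 genes), so the numbers were not taken as pairs. With a replicate block edgeR called 0 genes (2594 at an unadjusted p under 0.05), and likewise 0 other clock genes, 0 clock outputs and 0 glucocorticoid-induced genes. Ciart was at -2.99, Per1 at -1.54 and Per3 at -1.52 under the block.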
